A study of Rattus norvegicus with 28 samples.

Results

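The genes for the chains of collagen were followed in the rat aortic wall, between a region of low and a region of high wall shear stress (WSS), the drag that flowing blood exerts along the vessel wall. A gene was taken as a collagen gene when its symbol had the form of Col with a type number and a chain number and when a probe set carried that symbol alone in the array's annotation. This rule found 40 collagen genes with 43 probe sets among 17245 genes with such probe sets and 29214 probe sets in all. Of these, 36 genes with 39 probe sets had a mean level of at least 4 on the log2 scale and were tested, among 11750 genes. The members below that level were Col26a1 at 3.96, Col10a1 at 3.83, Col28a1 at 3.45 and Col6a4 at 2.98. Just inside it lay Col9a1 at 4.01 and Col9a3 at 4.08. Of the known classes, Col20a1, Col21a1, Col22a1, Col25a1 and Col6a5 had no probe set of their own symbol alone and were not analysed here.

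The arrays measured RNA of the entire wall, with intima, media and adventitia, of untreated male Wistar rats, whose age is not given in the sources used here. Both groups held the same animals, so strain, sex, feeding and housing were shared and only the place in the vessel differed. The high WSS pieces came from the greater curvature just beyond the left subclavian artery, where the direction of the shear was uniform, and the low WSS pieces came from the distal part of the lesser curvature, where it was disturbed in late systole. Tissue of 5 animals was pooled for each array, and 70 animals gave 14 pools from each region, 28 arrays in 14 pairs. The spread between pools is therefore narrower than that between animals, which was not measured, and a region differs from the other in its place in the arch as well as in its flow. All values are log2 levels from the authors' robust multi-array average (RMA), which adjusts for background and brings the arrays to 1 distribution.

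Collagens are proteins of 3 chains wound into a helix. Fibrillar collagens (types I, II, III, V, XI, XXIV and XXVII) give tissue its tensile strength, and in arteries types I and III make up most of the fibrils of media and adventitia. Type IV forms the sheet-like network of basement membranes, which surrounds each smooth muscle cell and underlies the endothelium. Type VI forms beaded filaments near cell surfaces, and the fibril-associated collagens with interrupted helices (FACITs) sit on the surface of other fibrils or between matrices. Type VIII is a short-chain collagen of vascular and corneal networks, types XIII, XVII and XXIII cross the cell membrane, and types XV and XVIII, the multiplexins, lie in basement membrane zones.

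The labelled tissue was borne out by its markers. Smooth muscle genes were bright in every pool, with a mean level over 9 measured markers of 10.68 to 11.44 in high WSS and 10.66 to 11.27 in low WSS, and 10 measured endothelial markers had a mean of 6.28 to 7.33 and 6.36 to 7.24. Fat cell genes varied most. The mean of 14 adipocyte markers spanned 5.50 to 9.42 among high WSS pools and 5.67 to 9.50 among low WSS pools, with pair differences of -1.90 to 3.51. Median levels per array were 4.88 to 5.00 in high WSS and 4.85 to 4.92 in low WSS, and no array stood apart from the rest, with correlations of 0.9792 to 0.9965 between arrays.

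In low WSS 10 of the 36 collagen genes were higher and 8 were lower than in high WSS, while 18 did not pass the test. The genes that rose were Col4a6, Col4a5, Col6a1, Col3a1, Col5a2, Col15a1, Col14a1, Col1a2 and Col6a3, with Col19a1 counted by its brighter probe set only, since its other probe set was called lower. The genes that fell were Col8a1, Col13a1, Col17a1, Col11a1, Col8a2, Col9a2, Col5a3 and Col12a1. On the log2 scale the called differences ran from -0.55 for Col8a1 to 0.36 for Col4a6, beside 0.58 for the brighter and -0.25 for the dimmer probe set of Col19a1. A gene is called higher or lower here at a Benjamini-Hochberg adjusted p under 0.05 in limma, fitted over all 13383 probe sets with the pair of pools as a block, and each difference is low minus high WSS over 14 pairs.

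Changes of this kind were common on these arrays. Among all 11750 genes 41.7% were called, 19.7% higher and 22% lower, so the share of collagens called, 18 of 36, lay near that background, as did the 10 higher and the 8 lower. The median difference of the collagens was 0.03 against -0.01 for all genes, and the median size of the difference regardless of direction was 0.13 against 0.11. Centring each array on its median moved the collagen calls to 13 higher and 6 lower and those of all genes to 26.9% and 16.7%. Quantile normalizing the arrays again gave 11 and 7, beside 21.3% and 21.4%. At the Bonferroni threshold (p under 3.74e-06) 4 collagens remained, Col8a1, Col4a6, Col4a5 and Col13a1, beside 6.91% of all genes. The difference had the same direction in all 14 pairs for 4 collagens, Col4a5, Col4a6, Col6a1 and Col8a1, which is close to the 9.22% of all genes with that pattern. No collagen gene separated the pools of the regions completely, as 1.13% of all genes did. With the smooth muscle genes Tagln and Cnn1 as covariates 5 collagens were higher and 5 were lower, and 8 of the 18 calls were lost. Calls fell among all genes too in that fit, to 11% higher and 14.5% lower. In pieces of whole wall, fewer cells of a type and less RNA per cell cannot be told apart.

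**Figure D1:**
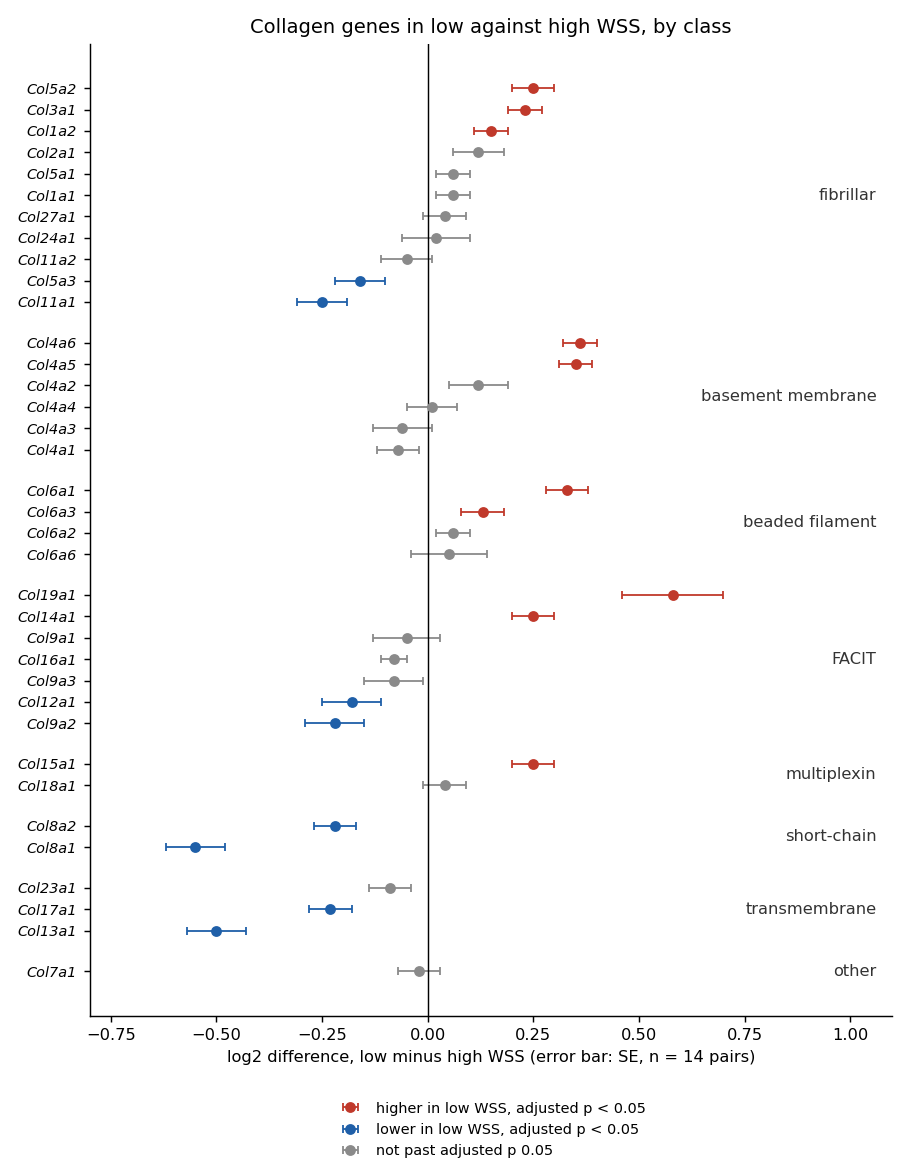
Log2 difference between low and high WSS for each of the 36 collagen genes tested, grouped by class, with the standard error from limma (n = 14 pairs). The called basement membrane and beaded filament genes lie to the right of 0 (Col4a6 at 0.36, Col6a1 at 0.33), and the called short-chain and transmembrane genes lie to the left (Col8a1 at -0.55, Col13a1 at -0.50).

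Basement membrane chains split by pairs of genes. Of 6 measured type IV genes, Col4a5 and Col4a6 rose in low WSS, and Col4a1, Col4a2, Col4a3 and Col4a4 did not pass the test. Col4a5 and Col4a6 encode the alpha5 and alpha6 chains, which join in 1 trimer of smooth muscle basement membranes. The level of Col4a5 was 8.48, 9.00 and 9.17 in high WSS (lowest, median and highest pool) and 9.09, 9.27 and 9.49 in low WSS. In 11 of 14 low WSS pools it was above every high WSS pool, and the groups overlapped only through the other 3 pools. The difference was 0.35 (SE 0.04, 1.27-fold, adjusted p = 5.57e-06). The level of Col4a6 was 7.85, 8.18 and 8.44 in high WSS and 8.18, 8.54 and 8.79 in low WSS. Of the low WSS pools 10 exceeded every high WSS pool, and all 14 exceeded the high WSS median. The difference was 0.36 (SE 0.04, 1.28-fold, adjusted p = 5.33e-06). Both genes kept their calls under each of the 12 alternative settings in which they were measured and without any 1 pair.

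The genes of Col4a5 and Col4a6 lie head to head on chromosome X, with 1415 bases between the starts that RefSeq gives on the GRCr8 assembly. Because they rose together, the windows from 250 bases before to 50 bases after each start are shown, 5′ to 3′ on the strand of the gene. Capitals mark a GC box (GGGCGG on either strand), the motif read by Sp1 and related factors.
Col4a5: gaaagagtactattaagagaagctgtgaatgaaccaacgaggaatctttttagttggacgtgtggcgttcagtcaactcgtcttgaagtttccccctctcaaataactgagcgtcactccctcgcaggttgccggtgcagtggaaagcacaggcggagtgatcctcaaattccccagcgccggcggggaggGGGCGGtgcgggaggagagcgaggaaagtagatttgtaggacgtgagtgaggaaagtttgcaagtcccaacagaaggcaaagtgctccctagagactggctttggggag
Col4a6: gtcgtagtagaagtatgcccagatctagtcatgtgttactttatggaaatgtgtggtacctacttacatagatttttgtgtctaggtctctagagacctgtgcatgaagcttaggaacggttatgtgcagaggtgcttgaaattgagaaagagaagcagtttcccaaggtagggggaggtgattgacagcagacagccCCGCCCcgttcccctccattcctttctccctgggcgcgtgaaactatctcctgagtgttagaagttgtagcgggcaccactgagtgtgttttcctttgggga
The window of Col4a5 lies at chrX:109907109-109907408 on the plus strand and that of Col4a6 at chrX:109905895-109906194 on the minus strand. Each holds 1 GC box and neither holds TATAAA or CCAAT, searched on both strands. Of 29 tested collagen genes with a window in the RefSeq table, 18 held a GC box (62.1%), 3 held TATAAA (10.3%) and 6 held CCAAT (20.7%). Over the windows of all 27457 genes in that table the shares were 34.9%, 14.3% and 37.7%. The motifs do not overlap each other in sequence, and a match describes the letters only.

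Col4a1 and Col4a2 encode the most widespread type IV chains, 2 of alpha1 and 1 of alpha2 in a trimer. The level of Col4a1 was 7.64, 7.75 and 8.21 in high WSS and 7.58, 7.78 and 8.05 in low WSS. The pools overlapped almost wholly, and the difference of -0.07 (SE 0.05) had an adjusted p of 0.246 by limma. Col4a2 was read by 2 probe sets that gave different results. The brighter probe set had a difference of 0.12 (SE 0.07, adjusted p = 0.219), and without pair 6, in which it was -0.71, it was 0.18 (adjusted p = 0.012). The dimmer one had levels of 7.57, 7.81 and 8.42 in high WSS and 7.97, 8.22 and 8.39 in low WSS, with a difference of 0.33 (SE 0.07, adjusted p = 0.000965). The 2 probe sets differed in their change by -0.21 (95% interval -0.29 to -0.14, exact sign-flip permutation test over the pairs, two-sided p = 0.000244, adjusted p = 0.000366 over 3 such genes). Whether Col4a2 rose thus depends on the probe set read.

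The starts of Col4a1 and Col4a2 are only 77 bases apart on chromosome 16, so their windows share 176 bases, shown on the plus strand. The change of Col4a1 differed by -0.19 from that of the brighter Col4a2 probe set, as described with the chain partners. The 2 probe sets of Col4a2 differed from each other by -0.21, so whether the genes themselves changed differently cannot be told. Capitals mark 2 GC boxes and 1 CCAAT box (read here as its complement ATTGG).
Col4a1 and Col4a2: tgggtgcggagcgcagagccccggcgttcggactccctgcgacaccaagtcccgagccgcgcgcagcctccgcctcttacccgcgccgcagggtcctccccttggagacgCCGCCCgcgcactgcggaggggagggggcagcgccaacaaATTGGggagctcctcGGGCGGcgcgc
The shared stretch lies at chr16:84885471-84885646 (GRCr8). The remaining pair, Col4a3 and Col4a4, lies head to head on chromosome 9 with 413 bases between the starts. Its chains join alpha5 in the basement membranes of kidney, lung and eye. Col4a3 differed by -0.06 (SE 0.07, adjusted p = 0.54) and Col4a4 by 0.01 (SE 0.06, adjusted p = 0.954), with pools of low WSS inside the range of high WSS for Col4a3.

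**Figure D2:**
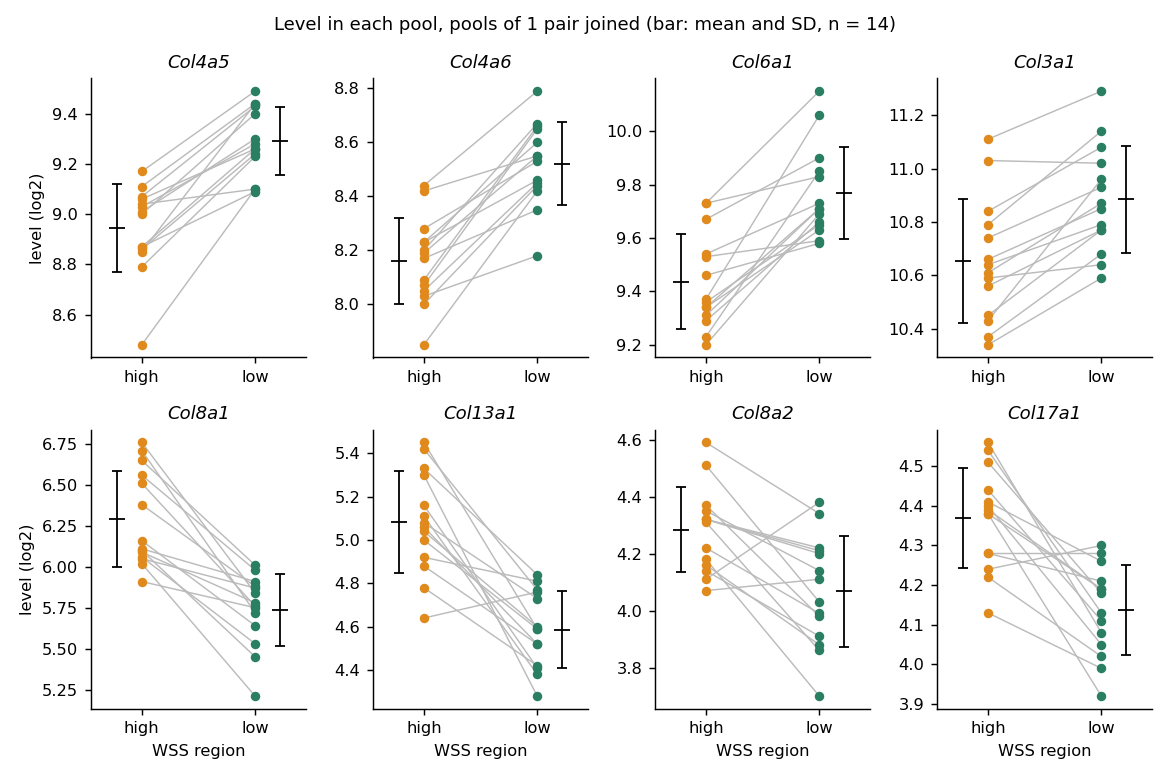
Log2 level of 8 collagen genes in each pool, with the 14 pools of high WSS (orange) and of low WSS (green), lines joining pools of 1 pair, and bars for the mean and SD. All 14 lines rise for Col4a5, Col4a6 and Col6a1 and all fall for Col8a1, while 13 rise for Col3a1, 13 fall for Col13a1, and 12 fall for Col8a2 and Col17a1.

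Among 11 fibrillar genes, Col3a1, Col5a2 and Col1a2 rose, Col11a1 and Col5a3 fell, and 6 did not pass the test. Those that rose belong to the types found in the arterial wall at large, and those that fell encode minor chains of types XI and V, which help to start fibrils and to set their width. The median difference of the class was 0.06. None of the 5 called genes passed the Bonferroni threshold.

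Col3a1, whose 3 identical chains form the stretchable type III fibrils of arteries, had levels of 10.34, 10.62 and 11.11 in high WSS and 10.59, 10.86 and 11.29 in low WSS. The groups overlapped widely, with 2 low WSS pools above all high WSS pools, but within pairs the low WSS pool was higher in 13 of 14. The difference was 0.23 (SE 0.04, 1.17-fold, adjusted p = 0.000157). Col5a2, the alpha2 chain of type V, which sits inside type I fibrils and limits their width, had levels of 7.82, 8.02 and 8.46 in high WSS and 8.04, 8.31 and 8.54 in low WSS. All 14 low WSS pools lay above the high WSS median. Its difference was 0.25 (SE 0.05, 1.19-fold, adjusted p = 0.000868), and 0.19 (adjusted p = 0.0659) with Tagln and Cnn1 as covariates. Col3a1 and Col5a2 are neighbours on chromosome 9.

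Type I collagen, the main fibrillar collagen of the body, has 2 alpha1 chains (Col1a1) and 1 alpha2 chain (Col1a2). The level of Col1a2 was 11.39, 11.53 and 11.77 in high WSS and 11.50, 11.68 and 12.01 in low WSS. The difference was small but steady, 0.15 (SE 0.04, 1.11-fold, adjusted p = 0.00289), and higher in 12 of 14 pairs. With Tagln and Cnn1 as covariates it was 0.08 (adjusted p = 0.237). Col1a1 had levels of 11.54, 11.71 and 11.99 in high WSS and 11.53, 11.77 and 12.15 in low WSS. Its pools overlapped widely, and the difference of 0.06 (95% interval -0.02 to 0.15) did not pass the test (adjusted p = 0.212).

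Col11a1, known from cartilage and from fibril-forming mesenchyme, had levels of 4.54, 4.87 and 5.15 in high WSS and 4.36, 4.63 and 4.84 in low WSS. All 14 low WSS pools lay under the high WSS median. The difference was -0.25 (SE 0.06, adjusted p = 0.00209), and the call held in every setting in which the gene was measured. Col5a3 fell by 0.16 (SE 0.06, adjusted p = 0.0469), at the edge of the threshold, and its call was lost in 10 of the 14 fits that left out 1 pair, with adjusted p of 0.0265 to 0.0958. The main cartilage collagen, Col2a1, had a difference of 0.12 (SE 0.06, adjusted p = 0.103), which passed the test when arrays were centred on their medians (0.16, adjusted p = 0.0316). The remaining fibrillar genes, Col5a1, Col11a2, Col27a1 and Col24a1, had differences of 0.06, -0.05, 0.04 and 0.02. The 2 probe sets of Col24a1 gave 0.02 and 0.04.

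Markers of cartilage moved beside these genes in both directions. Of 6 measured markers, Chad, which encodes chondroadherin, fell by 1.82 (SE 0.20) and Epyc, the proteoglycan epiphycan, fell by 0.60 (SE 0.10), while Acan, the core protein of aggrecan, rose by 0.49 (SE 0.07). Matn1, Snorc and Sox9, the master factor of chondrocytes, did not pass the test, and Matn3, Hapln1 and Cnmd were under a level of 4. The summed level of the list was 8.68 to 9.84 in high WSS and 8.13 to 8.78 in low WSS. Its part in the differences of Col11a1 and of Col9a2, also a cartilage gene, was not tested.

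Of 4 measured genes of type VI collagen, Col6a1 and Col6a3 rose and Col6a2 and Col6a6 did not pass the test. The alpha1, alpha2 and alpha3 chains join in equal number. Col6a1 had levels of 9.20, 9.37 and 9.73 in high WSS and 9.58, 9.71 and 10.15 in low WSS. The lowest low WSS pool lay above the high WSS median, and 5 low WSS pools lay above all high WSS pools. The difference was 0.33 (SE 0.05, 1.26-fold, adjusted p = 5.29e-05), just short of the Bonferroni threshold. Col6a2, its neighbour on chromosome 20, had levels of 9.17, 9.33 and 9.86 in high WSS and 9.15, 9.42 and 9.84 in low WSS. Here the ranges were almost the same, and the difference was 0.06 (95% interval -0.02 to 0.14, adjusted p = 0.211).

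Col6a3, the largest type VI chain, had levels of 7.65, 7.85 and 8.62 in high WSS and 7.68, 8.03 and 8.62 in low WSS. It was higher in 10 of 14 pairs by a mean of 0.13 (SE 0.05, adjusted p = 0.0347). This call was lost in pairs 4 to 14 alone (0.08, adjusted p = 0.224), with the adipocyte list mean as a covariate (0.12, adjusted p = 0.0977), without the pair as a block (adjusted p = 0.375) and in 7 of the 14 fits without 1 pair. Col6a6, a chain similar to alpha3, had the widest spread between pools of the class, 5.93 to 7.78 in high WSS and 5.97 to 7.63 in low WSS, and a difference of 0.05 (SE 0.09). It was 0.40, 0.66 and 0.70 in pairs 1, 2 and 3, in which the mean adipocyte level exceeded that of high WSS by 2.05, 3.51 and 2.89, but -0.47 in pair 7, in which the excess was 2.96. The part of fat tissue in the Col6a3 difference beyond these settings was not tested.

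The FACITs moved in both directions. Of 7 measured genes, Col14a1 rose, Col9a2 and Col12a1 fell, Col19a1 was called higher by 1 probe set and lower by the other, and Col9a1, Col9a3 and Col16a1 did not pass the test. Col14a1, which binds type I fibrils through decorin and is made by adventitial fibroblasts, had levels of 10.17, 10.52 and 10.83 in high WSS and 10.50, 10.79 and 11.03 in low WSS. Of the low WSS pools 12 lay above the high WSS median. The difference was 0.25 (SE 0.05, 1.19-fold, adjusted p = 0.00126). Its close relative Col12a1 moved the other way, by -0.18 (SE 0.07, adjusted p = 0.0482), with levels of 5.66 to 7.08 in high WSS and 5.43 to 6.54 in low WSS. The medians, 6.02 and 6.04, did not differ in that direction, and the call was lost in 9 of the 14 fits without 1 pair, with adjusted p of 0.0306 to 0.0952, and in the methods' paired test (adjusted p = 0.0743).

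Col19a1, a rare FACIT of basement membrane zones in muscle and nerve tissue, was read by 2 probe sets that went opposite ways. The brighter one had levels of 5.41, 5.92 and 6.43 in high WSS and 5.54, 6.59 and 7.07 in low WSS. In 9 low WSS pools it was above every high WSS pool, while pair 1 alone fell, by 0.90. The difference was 0.58 (SE 0.12, 1.5-fold, adjusted p = 0.00103) and rose to 0.70 without pair 1. The other probe set had levels of 5.41, 6.08 and 6.59 in high WSS and 5.44, 5.83 and 6.11 in low WSS. Of the low WSS pools 13 lay under the high WSS median, with a difference of -0.25 (SE 0.07, adjusted p = 0.00868). The 2 probe sets differed in their change by 0.83 (95% interval 0.59 to 1.07, exact sign-flip permutation test, two-sided p = 0.000122, the smallest that 14 pairs can give). Their mean gave 0.17 (adjusted p = 0.139), so no direction can be given for the gene as a whole.

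Col9a2, a type IX chain that decorates cartilage fibrils, had levels of 4.21, 4.59 and 4.88 in high WSS and 4.10, 4.37 and 4.80 in low WSS. The groups overlapped, with 4 low WSS pools under all high WSS pools and 12 of 14 under the high WSS median. The difference was -0.22 (SE 0.07, adjusted p = 0.0133), and it did not pass the test with Tagln and Cnn1 as covariates (adjusted p = 0.0906). The other type IX chains, Col9a1 and Col9a3, differed by -0.05 and -0.08 with adjusted p of 0.641 and 0.355. Col16a1, a FACIT of dermal and smooth muscle matrix, differed by -0.08 (SE 0.03, adjusted p = 0.0898). It passed in the methods' paired t-test with Benjamini-Hochberg adjustment (adjusted p = 0.0428) in place of their Bonferroni correction.

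Of the multiplexins, Col15a1 rose and Col18a1, the source of endostatin, did not pass the test. Col15a1, which anchors basement membranes to the fibrils beneath, had levels of 10.27, 10.47 and 10.72 in high WSS and 10.56, 10.70 and 11.04 in low WSS. Every low WSS pool lay above the high WSS median and 6 lay above all high WSS pools. The difference was 0.25 (SE 0.05, 1.19-fold, adjusted p = 0.000881). With Tagln and Cnn1 as covariates it was 0.14 (adjusted p = 0.107). The levels of Col18a1 were 9.32 to 9.70 in high WSS and 9.42 to 9.79 in low WSS, with a difference of 0.04 (SE 0.05, adjusted p = 0.526).

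Both measured short-chain genes fell in low WSS, and Col8a1 had the smallest adjusted p of all 36 collagen genes. Col8a1 and Col8a2 encode the chains of type VIII collagen, which vascular smooth muscle and endothelial cells deposit in the subendothelium and which is known to increase in injured arteries. Col8a1 had levels of 5.91, 6.14 and 6.76 in high WSS and 5.21, 5.77 and 6.01 in low WSS. In 12 of 14 low WSS pools it was below every high WSS pool. Among the high WSS pools there was a gap between 6.16 and 6.38, with 8 pools at or under the first value and 6 at or above the second. The difference was -0.55 (SE 0.07, 1.47-fold lower, adjusted p = 4.87e-06) and ran from -0.99 to -0.16 over the pairs. It lay between -0.58 and -0.52 without any 1 pair.

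The window around the start of Col8a1 is shown because this gene fell the most, with 4 GC boxes in capitals and neither TATAAA nor CCAAT.
Col8a1: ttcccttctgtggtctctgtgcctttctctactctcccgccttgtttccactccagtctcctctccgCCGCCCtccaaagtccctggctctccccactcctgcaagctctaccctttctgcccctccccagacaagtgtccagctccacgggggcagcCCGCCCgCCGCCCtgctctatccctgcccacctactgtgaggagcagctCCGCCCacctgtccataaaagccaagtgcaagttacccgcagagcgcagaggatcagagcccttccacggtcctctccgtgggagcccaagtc
It lies at chr11:56246532-56246831 on the plus strand of GRCr8. Col8a2 was dim, with levels of 4.07, 4.32 and 4.59 in high WSS and 3.70, 4.07 and 4.38 in low WSS. Of the low WSS pools 7 lay below all high WSS pools and 12 below the high WSS median. The difference was -0.22 (SE 0.05, 1.16-fold lower, adjusted p = 0.00402), and the call held in every setting in which the gene was measured.

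Of 3 measured transmembrane genes, Col13a1 and Col17a1 fell and Col23a1 did not pass the test. Both genes that fell were dim, with mean levels of 4.83 and 4.25. These lay under the array medians of 4.88 to 5.00 in high WSS and 4.85 to 4.92 in low WSS. The same held for Col11a1 (4.75), Col9a2 (4.48) and Col8a2 (4.18). How much of such readings is background was not measured. Col13a1, a collagen of cell adhesion sites and the neuromuscular junction, had levels of 4.64, 5.07 and 5.45 in high WSS and 4.28, 4.59 and 4.84 in low WSS. All 14 low WSS pools lay under the high WSS median and 9 under every high WSS pool. The difference was -0.50 (SE 0.07, 1.41-fold lower, adjusted p = 4.13e-05), with pair 4 alone in the other direction at 0.13. Col17a1, a hemidesmosome collagen of the skin, had levels of 4.13, 4.39 and 4.56 in high WSS and 3.92, 4.16 and 4.30 in low WSS. Here too all 14 low WSS pools lay under the high WSS median, and the difference was -0.23 (SE 0.05, 1.18-fold lower, adjusted p = 0.000652). Col23a1 differed by -0.09 (SE 0.05, adjusted p = 0.118) and passed the test without pair 8 (-0.12, adjusted p = 0.0448). Col7a1, the anchoring fibril collagen of skin, differed by -0.02 (SE 0.05).

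Genes that rose and genes that fell were read at different brightness, a pattern seen in the data and not chosen beforehand. Among 14 collagens with a mean level of at least 8, 9 rose and 0 fell, beside 27.1% and 25.3% of all genes at that level. Of 6 at levels of 6 to 8, 2 fell and 1 was called higher, beside 20.9% and 21.2%, and that 1 was Col19a1 by its brighter probe set. Among 16 at levels of 4 to 6, 0 rose and 6 fell, beside 10.7% and 20.2%. The brightness of a probe set depends on its probes as well as on its transcript, so these bins do not rank the genes by abundance. No gene of the opposite direction passed at either end by the methods' paired test, and 0 did so at an unadjusted p under 0.05 in limma. This did not hold in every setting. Col2a1, at a mean level of 5.19, was called higher by limma with centred arrays (0.16, adjusted p = 0.0316). It was also called higher with arrays quantile normalized again (0.15, adjusted p = 0.044) and in pairs 4 to 14 alone (0.17, adjusted p = 0.0255). Among the 14 brightest every difference was above 0, from 0.04 to 0.36. Their size depended on the normalization. Quantile normalizing the arrays again gave 0.15 for Col3a1, 0.18 for Col14a1 and for Col15a1, 0.11 for Col1a2 and 0.01 for Col1a1. The deposited values gave 0.23, 0.25, 0.25, 0.15 and 0.06. Col4a5 and Col4a6 changed little, to 0.34 and 0.36, and 10 higher calls were kept. Those not called at that level were Col1a1, Col4a2, Col5a1, Col6a2 and Col18a1.

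**Figure D3:**
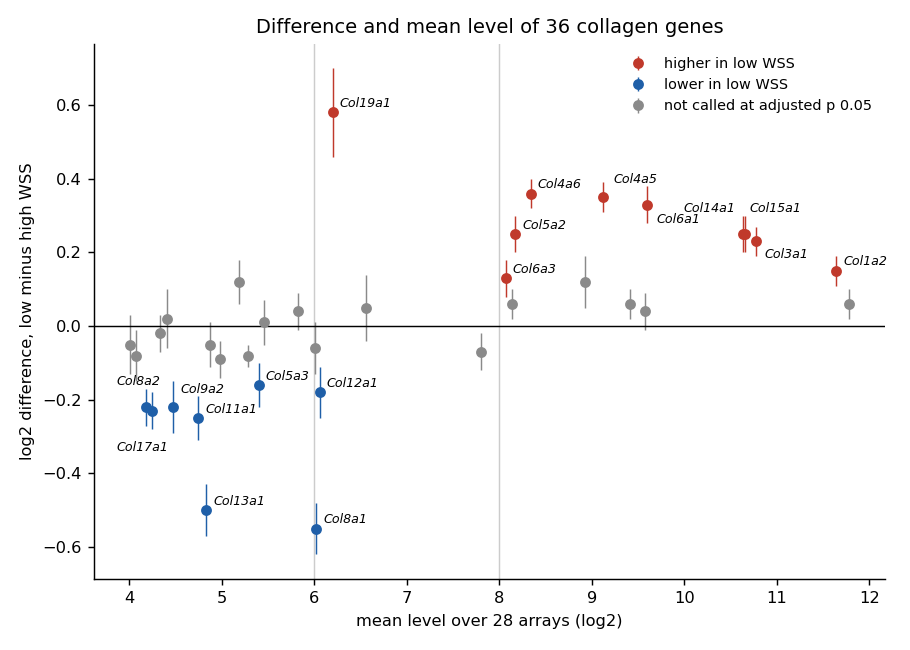
Log2 difference (low minus high WSS, with SE, n = 14 pairs) against the mean level over 28 arrays for 36 collagen genes, with vertical lines at levels of 6 and 8. Of 14 genes to the right of 8, 9 are higher and 0 are lower in low WSS, and of 16 genes to the left of 6, 0 are higher and 6 are lower.

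The pairs of pools were not alike. In pair 3 the low WSS pool had the higher level for 30 of 36 collagens and in pair 4 for 26, with median differences of 0.21 in both, while all genes had medians of 0.06 and 0.04. In pairs 6 and 7 the number was 13 and 11, with medians of -0.15 and -0.05 beside -0.11 and -0.06 for all genes. In the other pairs it was 17 to 22. The mean adipocyte level differed by 2.89 in pair 3, by 2.96 in pair 7, by -1.66 in pair 4 and by -1.90 in pair 6 (low minus high WSS). The part of fat tissue in these counts was not tested. Pairs 4 to 14 alone gave 10 collagens higher and 8 lower, of which 9 and 8 were among those of all pairs. In that fit 18.1% of all genes were higher and 23.2% lower. It leaves out pairs 1, 2 and 3, whose same-numbered pools did not resemble each other (r of 0.04, -0.01 and 0.00 between their deviations), so values of these pairs are less sure.

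**Figure D4:**
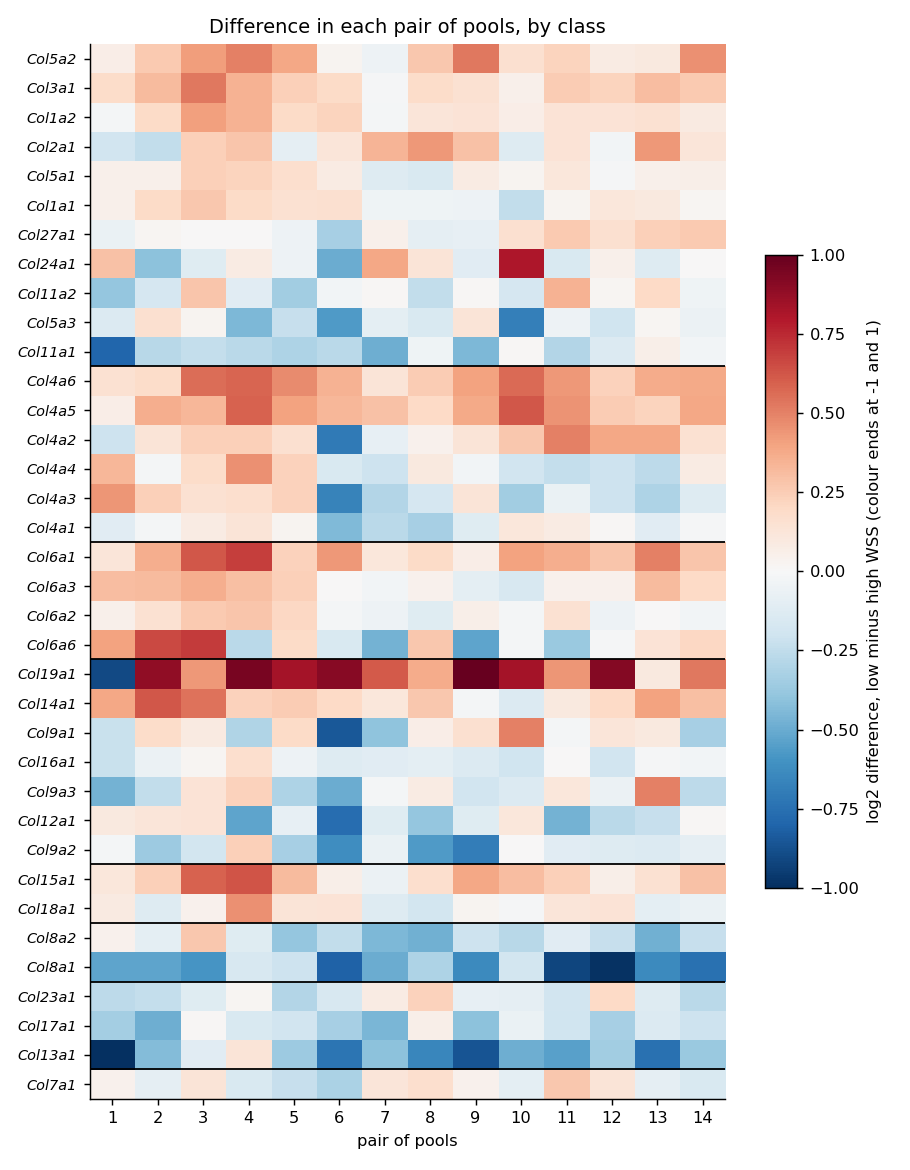
Log2 difference (low minus high WSS) of each collagen gene in each of the 14 pairs of pools, ordered by class (lines, from fibrillar at the top through basement membrane, beaded filament, FACIT, multiplexin, short-chain and transmembrane to Col7a1), with red for higher and blue for lower in low WSS. Col4a5, Col4a6 and Col6a1 are red and Col8a1 is blue in all 14 pairs, and Col19a1, shown by its brighter probe set alone, is red in 13.

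Chains of the same molecule were compared over the pairs in 12 combinations, of which 10 share a collagen type or a fibril and 2 (Col15a1 with Col18a1, Col12a1 with Col14a1) are relatives in separate molecules. The pair differences were correlated past an adjusted p of 0.05 for 5 of the 12, and for 10 when the deviations of the 28 pools from their region means were used instead. Pools of 1 pair come from the same animals, so the 28 deviations are not independent and the count of 10 may be too high. The 5 were Col1a2 with Col3a1 (r = 0.82, rho = 0.76, n = 14 pairs, permutation p = 0.00058, adjusted p = 0.00348), Col1a1 with Col3a1 (r = 0.80, rho = 0.80), Col4a1 with Col4a2 (r = 0.77, rho = 0.75), Col4a5 with Col4a6 (r = 0.74, rho = 0.78) and Col1a1 with Col1a2 (r = 0.71, rho = 0.87). Without the 2 pairs farthest from the median r was 0.63, 0.69, 0.60, 0.61 and 0.69. The 7 others had r of -0.18 for Col8a1 with Col8a2 to 0.58 for Col5a1 with Col5a2 (adjusted p = 0.0604). All chains were read on the same arrays, so a chain and its partner share the normalization of each array. How often unrelated genes correlate as much was not measured, so these r do not show a link particular to partner chains.

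The sizes of the changes differed in 10 of the 12 combinations, those of separate molecules among them. The test was an exact sign-flip permutation test of the difference over 14 pairs, two-sided and adjusted over the 12. It was added after the data were seen. Col6a1 rose more than Col6a2 in all 14 pairs, by 0.27 (95% interval 0.18 to 0.36, adjusted p = 0.000732). Its raw p of 0.000122 is the smallest possible, as it was for Col1a1 and Col3a1, which differed by -0.17 (95% interval -0.21 to -0.12). The change of Col5a1 was smaller than that of Col5a2 in 13 of 14 pairs, with a difference of -0.19 (95% interval -0.28 to -0.10, adjusted p = 0.00146). Col1a1 and Col1a2 differed by -0.09 (95% interval -0.15 to -0.04, adjusted p = 0.00385), and Col4a1 and Col4a2, read by its brighter probe set, by -0.19 (95% interval -0.30 to -0.07, adjusted p = 0.00703).

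Both type VIII genes fell, but Col8a1 fell by more, with a difference of -0.34 (95% interval -0.55 to -0.13, adjusted p = 0.00703), and their pair differences were not correlated (r = -0.18, rho = -0.20, permutation p = 0.552). The change of Col12a1 lay under that of Col14a1 by -0.42 (95% interval -0.60 to -0.25, adjusted p = 0.00146). A difference did not pass for Col4a5 with Col4a6 (-0.01, 95% interval -0.08 to 0.05, adjusted p = 0.671) and for Col6a2 with Col6a3 (-0.07, 95% interval -0.16 to 0.02, adjusted p = 0.108). Probe sets can differ in how steeply they respond, which was not measured, so a difference in size between chains is one between readings.

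**Figure D5:**
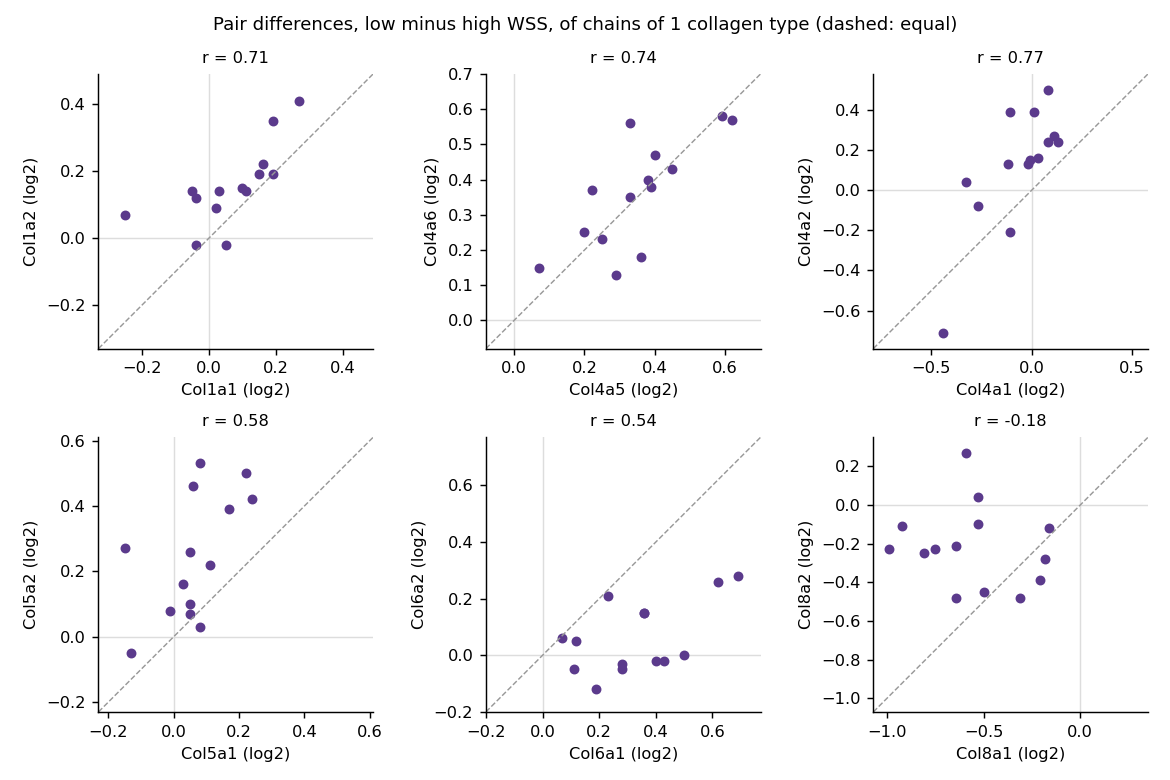
Pair differences (low minus high WSS, log2) of 1 chain against its partner, 14 pairs each, with r above each panel and a dashed line of equal change. Col4a5 and Col4a6 lie along the line (r = 0.74), Col6a1 lies to the right of it against Col6a2, and Col5a1 lies to the left of it against Col5a2 in 13 of 14 pairs.

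Of 22 measured genes that fold and modify collagen chains in the endoplasmic reticulum, 9 were higher and 4 were lower in low WSS, beside 19.7% and 22% of all genes. Their median difference was 0.05, and no test of the list was made. Ppib, a prolyl isomerase (cyclophilin B) that speeds folding of the helix, rose by 0.40 (SE 0.03, adjusted p = 6.16e-08) in all 14 pairs, from a mean level of 10.71 ± 0.09 to 11.12 ± 0.08 (SD, n = 14). Fkbp14, another prolyl isomerase, rose by 0.50 (SE 0.06, adjusted p = 6.39e-06), and Crtap, which works with Ppib in the prolyl 3-hydroxylase complex, by 0.32 (SE 0.04, adjusted p = 1.32e-05). Kdelr2, Plod1, Fkbp10, P3h2, Serpinh1 (the collagen chaperone Hsp47) and P4hb also rose, by 0.11 to 0.19. Those that fell were Creb3l1, a transcription factor of collagen secretion, by 0.64 (SE 0.06, adjusted p = 7.63e-07), Colgalt2, a collagen galactosyltransferase, by 0.67 (SE 0.08, adjusted p = 2.91e-06), P4ha3, a prolyl 4-hydroxylase subunit, by 0.60 and P3h4 by 0.15.

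Of 12 measured genes for the trimming and cross-linking of collagen outside the cell, 0 rose and 5 fell in limma. The shares of all genes were 19.7% and 22%, and no test of the list was made. In the list 0 were higher at an unadjusted p under 0.05 or in the methods' paired test. Loxl4, a lysyl oxidase, fell by 0.45 in all 14 pairs (SE 0.05, adjusted p = 5.82e-06). Adamts3, which removes the amino-terminal propeptide, fell by 0.30 (SE 0.07), and Bmp1, which removes the carboxy-terminal one, fell by 0.20 (SE 0.05). Pcolce, which enhances Bmp1, fell by 0.25 and Loxl1 by 0.15. The main lysyl oxidase, Lox, differed by 0.04 (SE 0.03, adjusted p = 0.348).

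Of 13 measured genes for proteins that bind or arrange fibrils, 1 rose and 5 fell, beside 19.7% and 22% of all genes. Postn, which encodes periostin, fell the most, by 1.14 (SE 0.08, adjusted p = 3.98e-08), from 9.41 ± 0.25 to 8.27 ± 0.40 (SD, n = 14). Dpt, or dermatopontin, fell by 0.65 (SE 0.07) and Fmod, or fibromodulin, by 0.59 (SE 0.06), both in all 14 pairs. Nid1, which ties type IV collagen to laminin, fell by 0.19 (SE 0.05), and Dcn, or decorin, by 0.10 (SE 0.04). Thbs2, a thrombospondin, rose by 0.23 (SE 0.05, adjusted p = 0.000499).

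Of 9 measured genes in the list for breakdown and uptake of collagen, 6 were higher and 1 was lower, beside the same shares of all genes, with a median of 0.14 and no test of the list. The 6 were 4 genes of breakdown or uptake and 2 inhibitors of proteases, Timp1 and Timp3. Ctsk, a collagen-cleaving cathepsin, rose by 0.31 (SE 0.07, adjusted p = 0.00202), Mmp16 by 0.28 (SE 0.06) and Timp1, an inhibitor of such proteases, by 0.26 (SE 0.05). Mmp2, Mrc2 (a collagen uptake receptor) and Timp3 rose by 0.14, 0.14 and 0.11. Fap, a protease of activated fibroblasts, fell by 0.93 in all 14 pairs (SE 0.08, adjusted p = 1.64e-07). Mmp8, Mmp9 and Mmp13 were under a level of 4.

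Of 8 measured collagen receptors 2 were called higher and 3 lower, with Itga2 among the 3, beside 19.7% and 22% of all genes. Itga11, the integrin alpha chain for fibrillar collagen on fibroblasts, fell by 0.68 in all 14 pairs (SE 0.05, adjusted p = 3.67e-08). Itga1, which pairs with the same beta chain and binds type IV collagen, fell by 0.22 (SE 0.05) and Itga2 by 0.39 (SE 0.08). Itga2 had mean levels of 4.24 in high WSS and 3.85 in low WSS. It passed the filter at 4 only through the high WSS pools, so its call carries no weight. Ddr2, a receptor kinase for fibrillar collagen, rose by 0.20 in all 14 pairs (SE 0.03, adjusted p = 0.000101), and Itga10 rose by 0.38 (SE 0.08). Itgb1, the shared beta chain, differed by 0.01 (SE 0.04). Among all genes 41.7% were called. In the order of these lists the shares called were 13 of 22, 5 of 12, 6 of 13, 7 of 9 and 5 of 8. The 5 receptors include Itga2.

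The counts of cell type markers called stand beside 19.7% of all genes higher and 22% lower. Of 12 fibroblast and adventitia markers, 4 rose (Thy1, Mfap5, Pdgfra and Gsn) and 3 fell (Dpt, Pi16 and Dcn). Their median difference was 0.08, with a summed level of 13.99 to 14.34 in high WSS and 13.86 to 14.34 in low WSS. Of 9 contractile smooth muscle markers 1 rose (Actg2) and 3 fell (Myocd, Lmod1 and Synpo2), with summed levels of 14.20 to 14.79 and 14.22 to 14.69. Of 10 endothelial markers 0 passed in limma, 0 at an unadjusted p under 0.05 and 0 in the methods' paired test, with summed levels of 9.90 to 10.84 and 9.92 to 10.84. Of 14 adipocyte markers 3 rose (Car3, Lpl and Fabp4) and 0 fell, also 0 at an unadjusted p under 0.05 in limma and in the methods' paired test, with a median difference of 0.81 and summed levels of 10.74 to 13.74 and 10.81 to 13.94. With the adipocyte mean as a covariate 9 collagens were higher and 8 were lower, beside 18.1% and 21.7% of all genes. The part of fibroblast or smooth muscle content in the collagen differences, beyond the fit with Tagln and Cnn1, was not tested.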

How the data were processed

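RNA of 28 pools of rat aortic wall (14 high and 14 low WSS) was measured on Affymetrix Rat Gene 1.1 ST arrays. The deposited values are log2 levels per probe set that the authors made with RMA (version not given in the sources used here, annotation on build rn4 per the labels), with no correction for pair or batch named. Arrays give no counts or depth, so the number of arrays limits the precision. Probe sets with a symbol and a mean level of at least 4 were kept, as in the methods. A gene with several probe sets was represented by the brightest, and the others were given beside it.

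Low and high WSS were compared with limma 3.58.1 (R 4.3.3), with the pair as a block and Benjamini-Hochberg adjustment over 13383 probe sets, and the script was tested on simulated data. The methods' paired t-test was run here with Benjamini-Hochberg adjustment, where the methods used Bonferroni correction. The methods pair the pools by animals, and the labels number them. The deviations of same-numbered pools from their region means had r of -0.01 to 0.48, over 0.1 in 11 of 14 pairs. In pairs 1, 2 and 3 r was 0.04, -0.01 and 0.00, so the values do not show that these pools were matched. Pairs 4 to 14 were therefore also fitted alone. Pools of 1 region are separate animals. Correlations over pairs used 100000 permutations (Python 3.11.15, scipy 1.17.1). Differences between chains or probe sets used an exact sign-flip permutation test. Summed levels of a list are the log2 of its summed linear levels. Promoter windows and gene neighbours came from RefSeq (GRCr8), with 1 window per gene.

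All measured collagens could be named, with full values for those past the Bonferroni threshold and up to 4 per class, and in each pathway list the 4 genes lowest in adjusted p and any called in the opposite direction. Other genes named were chosen after their values were seen. The members and lists were chosen with earlier results of these data known. The level bins, the tests between chains and probe sets, the neighbours, the counts per pair and the motif search were added after the data were seen. Protein sequences were not used here.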

Additional observations from a re-analysis of the deposited data

How the results depend on the processing

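The count of collagens higher in low WSS was 10, and 9 to 11 without any 1 pair, and the count of lower ones was 8, and 6 to 8. No called collagen changed direction in the 12 other settings or the 14 fits without 1 pair. Kept in every setting in which they were measured were the calls of Col3a1, Col4a5, Col4a6, Col6a1, Col8a1, Col8a2, Col11a1, Col13a1, Col14a1 and Col17a1. With no replicate block, that is without the pairing, 9 were higher and 6 were lower, and Col6a3, Col12a1 and Col5a3 lost their calls. Among all genes 17.1% were higher and 18.6% lower in that fit. At a mean level of at least 6 only 2 were lower, since most of the genes that fell are dimmer and leave the test. With Tagln and Cnn1 as covariates 5 were higher and 5 were lower, beside 11% and 14.5% of all genes, and the cause was not tested. The 5 correlated chain combinations were 10 when the deviations of all 28 pools from their region means took the place of the pair differences. These deviations are not independent within a pair, so that count may be too high.

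Some collagens that did not pass the test changed sign. Col7a1 was 0.02 with centred and 0.03 with requantiled arrays, Col6a6 was -0.03 with Tagln and Cnn1, -0.02 with the adipocyte mean and -0.09 in pairs 4 to 14 alone, and Col4a4 was -0.04 in these pairs. Without 1 pair, Col4a4 ran from -0.03 to 0.03, Col24a1 from -0.04 to 0.06, Col7a1 from -0.04 to 0.01 and Col9a1 from -0.09 to 0.01. The r of Col12a1 with Col14a1 was -0.32 in pairs 4 to 14, against 0.25. Of 920 values of single genes under these settings 841 kept direction and side of the threshold, 50 lost a call and 11 gained one. The number of arrays limits what can be detected.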
